A study of Mus musculus with 2 samples.

Results

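The genes of the NF-κB subunits and their inhibitors were followed through single-cell RNA profiles of mouse colonic epithelium. The 10 genes were taken by name, but the choice was made with earlier results of these data known. They were Nfkbia, Nfkbib, Nfkbie, Nfkbiz and Bcl3 of the IκB family, Nfkb1, Nfkb2, Rela and Relb of the subunits, and Tnfaip3. All 10 were among the 17829 genes of the deposited matrix, and all 10 had at least 50 UMIs (unique molecular identifiers, each standing for 1 captured RNA molecule) over both libraries. The cells were live, EpCAM-positive and sorted from the colon of C57BL/6 mice, and were read with a 10x Genomics 3' assay. One library came from Mettl14 WT and 1 from Mettl14 KO epithelium, and the series text gives 2 weeks without saying from when. The METTL14 protein is the partner of METTL3 in the complex that places m6A on RNA. The labels do not name a Cre driver or the deleted exons, nor how many mice each library pooled.

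NF-κB is a family of dimeric transcription factors. In resting cells the dimers are held in the cytoplasm by IκB proteins, and signals such as TNF or bacterial products lead to phosphorylation and loss of the IκBs, which frees the dimers to enter the nucleus. In the canonical branch the main dimer is made of RelA and p50, the latter cut from the Nfkb1 product, and in the non-canonical branch it is made of RelB and p52, cut from the Nfkb2 product. Several of these genes are themselves NF-κB targets, which gives the pathway its feedback loops. In the intestinal epithelium NF-κB is known for survival signals and for the production of chemokines and antimicrobial proteins.

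The WT library held 4210 cells with 60205658 UMIs and the KO library 3653 cells with 37635762 UMIs, with a median of 12094 and 9119 UMIs per cell and a median mitochondrial share of 11.9% and 11.6%. The libraries shared 2 cell barcodes. Levels below are sums of a gene's UMIs in a library or class, scaled by the summed UMIs of all genes there and given as CPM, and a ratio is log2 of KO CPM over WT CPM, followed by its 95% interval. With 1 library per genotype there is no replicate check and no test. Every interval covers counting error only. A gene was called higher or lower by size alone, at 1.5-fold. Mettl14 itself stood at 10.5 CPM in WT and 5.34 CPM in KO (-0.97, -1.21 to -0.74). In cluster 0, described below, it stood at 10.5 and 8.17 CPM (-0.36, -0.83 to 0.10). Since the deleted exons are not named, it is not known whether the 3' reads fall in them. The 5 epithelial genes Epcam, Cdh1, Krt8, Krt18 and Krt19 were present in both libraries, at a summed 5218 and 4034 CPM. By markers, clusters 1 and 2 of the authors' 7 were goblet-like. Cluster 3 held cycling-like, cluster 4 colonocyte-like, cluster 5 enteroendocrine-like and cluster 6 stromal-like cells. Cluster 0 scored highest for stem cell markers but was led by pancreatic enzyme genes, and 33 of its WT cells and 0 KO cells held at least 1% of UMIs from 14 such genes, so it is called by its number. Cluster 6 had 31 KO cells and was not compared, which left 5 classes.

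Over all cells 6 of the 10 genes were at least 1.5-fold higher in the KO library, 1 was at least 1.5-fold lower and 3 were neither. Among the 13334 genes with at least 50 UMIs, 17% were that much higher and 16.7% that much lower, with a median ratio of -0.04, against a median of 1.06 for the 10 genes. The genes above the threshold were Nfkbia, Nfkbie, Nfkb2, Relb, Bcl3 and Tnfaip3. The gene below it was Nfkbiz, and Nfkbib, Nfkb1 and Rela lay between the thresholds. The counts were also 6 and 1 in the cells left by an immune filter, with the share of all genes there not given. The filter removed cells holding UMIs of at least 2 of 15 immune marker genes. That list stood at a summed 81.7 CPM in WT and 95.1 CPM in KO, and 3 of its 11 measured genes were higher and 3 lower. Of the 8 stromal marker genes, 5 of 6 measured ones were lower in KO, at a summed 78.4 CPM in WT against 14.1 CPM in KO.

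**Figure D1:**
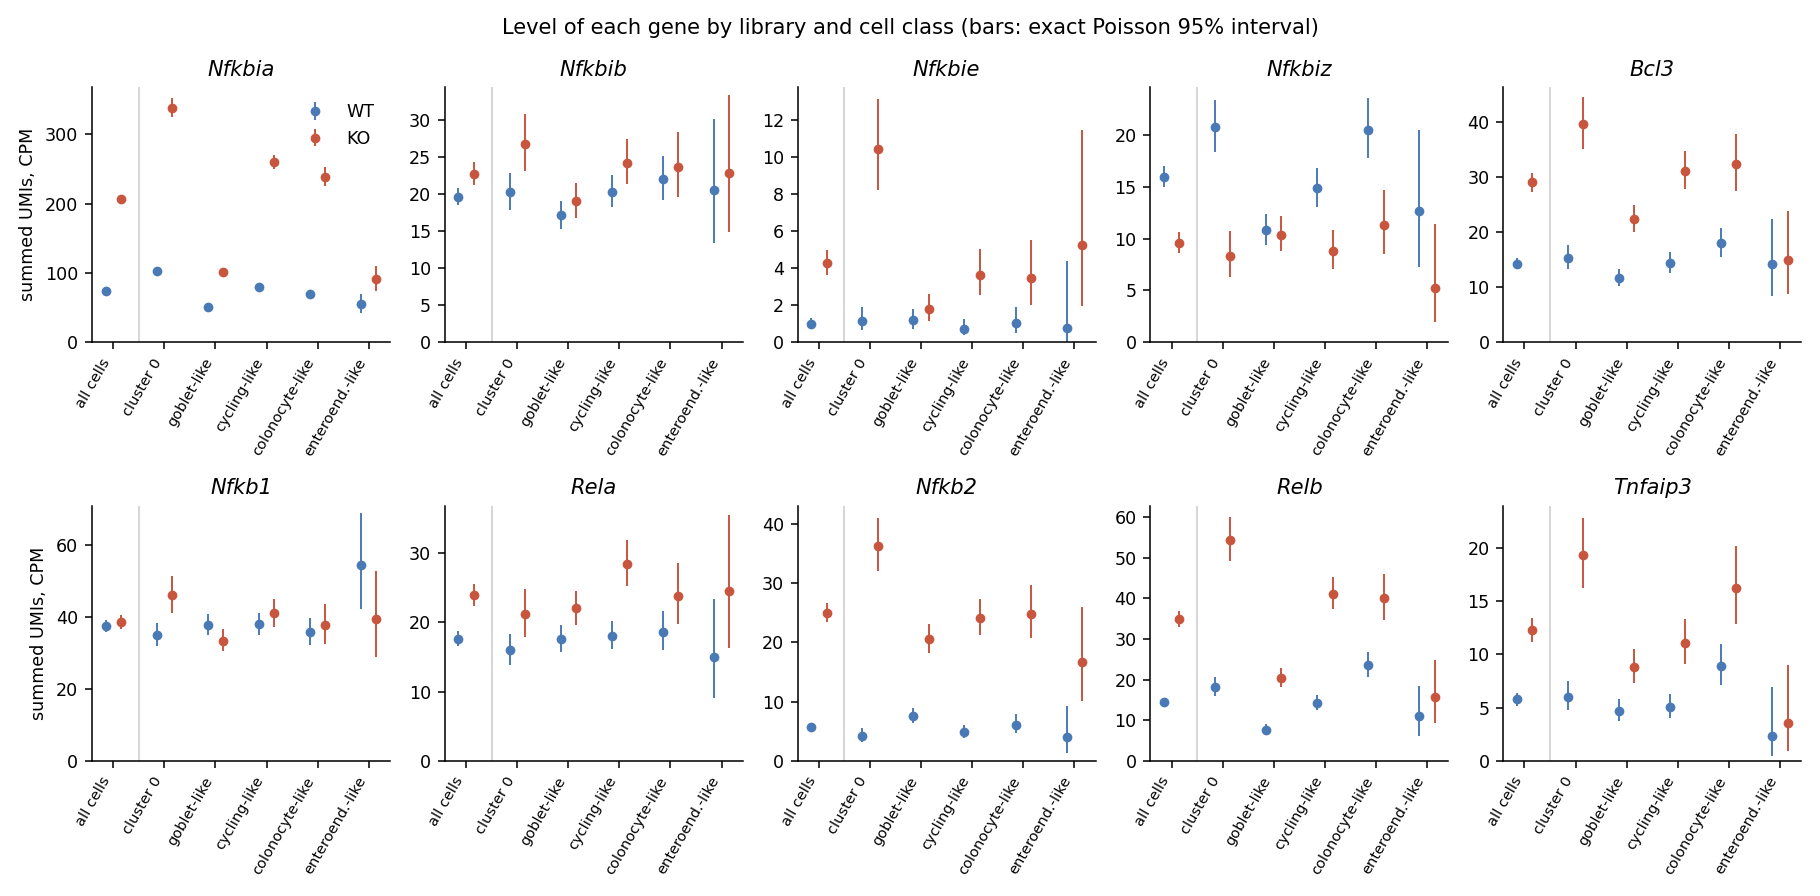
Level of each of the 10 genes in the WT (blue) and KO (red) library, over all cells and in the 5 cell classes. The vertical axis is CPM of summed UMIs from 0, and bars are exact Poisson 95% intervals that cover counting error only. Nfkbia stood between 51.5 and 102 CPM in the WT classes and between 91.2 and 338 CPM in the KO classes, while Nfkb1 intervals mostly overlapped.

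The classical IκB proteins hold NF-κB in the cytoplasm, and their genes differed in the size of their ratio, with all 3 intervals above 0 over all cells. Nfkbia (chr12:55489410-55492647, minus strand) encodes IκBα, which is lost fastest on stimulation and is then remade as an NF-κB target. Its level was 73.4 CPM in WT and 207 CPM in KO, from 4420 and 7800 UMIs (log2 ratio 1.497, interval 1.44 to 1.55). In the WT library it was 102 CPM in cluster 0, 79.7 CPM in cycling-like, 69.3 CPM in colonocyte-like, 54.4 CPM in enteroendocrine-like and 51.5 CPM in goblet-like cells. In the KO library the same classes stood at 338, 260, 238, 91.2 and 102 CPM. The KO level was above the WT level in all 5 classes, and the WT and KO ranges over the classes overlapped only through the goblet-like and enteroendocrine-like KO cells. The interval of the difference between the last pair in each library, goblet-like and enteroendocrine-like, included 0, as did that between WT colonocyte-like and enteroendocrine-like cells.

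Nfkbib (chr7:28758251-28767512, minus strand) encodes IκBβ, which is lost more slowly than IκBα. It stood at 19.6 CPM in WT and 22.7 CPM in KO (0.21, 0.08 to 0.34). Its class ratios lay between 0.10 and 0.40, and none of the 5 reached 1.5-fold. The gene overlaps Sirt2 on the opposite strand, and whether the counting used strand is not given in the sources used here.

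Nfkbie (chr17:45555703-45563169, plus strand) encodes IκBε, an inhibitor that is also remade after stimulation. It was scarce, with 60 UMIs in WT and 160 in KO, or 0.997 against 4.25 CPM (2.09, 1.66 to 2.55). In cluster 0 it stood at 1.15 CPM in WT and 10.4 CPM in KO, the widest gap of any of the 10 genes in any class with at least 20 UMIs (3.18, 2.36 to 4.08). In goblet-like cells 22 UMIs stood against 25 (0.59, -0.30 to 1.48), just past the 1.5-fold call but not detectable as a difference at this depth. In cells with at most 10% mitochondrial UMIs the ratio over all cells was 0.89 (0.10 to 1.70).

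The nuclear members of the IκB family bind NF-κB subunits on DNA, and these 2 genes lay on opposite sides. Bcl3 (chr7:19808462-19822770, minus strand) encodes a partner of p50 and p52 homodimers. It was at 14.3 CPM in WT and 29.0 CPM in KO (1.02, 0.89 to 1.15). In cluster 0 its level was 15.3 against 39.6 CPM, in colonocyte-like cells 17.9 against 32.4 CPM, in cycling-like cells 14.4 against 31.1 CPM and in goblet-like cells 11.7 against 22.4 CPM. In enteroendocrine-like cells it was 14.2 against 14.9 CPM (0.07, -0.98 to 1.11), which rests on 18 and 17 UMIs. The gene overlaps the predicted gene Gm16174 on the opposite strand.

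Nfkbiz (chr16:55811375-55838899, minus strand) encodes IκBζ, a coactivator of a subset of NF-κB targets whose own gene responds quickly to interleukin and Toll-like receptor signals. It stood at 15.9 CPM in WT and 9.57 CPM in KO (-0.74, -0.92 to -0.56). The WT level was 20.8 CPM in cluster 0 and 20.5 CPM in colonocyte-like cells, against 8.31 and 11.3 CPM in KO. Cycling-like cells stood at 14.9 against 8.83 CPM, and enteroendocrine-like cells at 12.6 against 5.26 CPM, the latter from 16 and 6 UMIs (-1.26, -2.90 to 0.16). Goblet-like cells had 10.8 against 10.4 CPM (-0.06, -0.37 to 0.26), where cluster 1 gave 0.06 (-0.35 to 0.47) and cluster 2 gave -0.39 (-0.94 to 0.14). Whether the classes differ in this ratio was not tested. The cycling-like call was lost in Y-linked cells, defined below (-0.34), and after thinning to 3000 UMIs (-0.53), and the colonocyte-like call in cells with at most 10% mitochondrial UMIs (-0.53). The WT levels of Nfkbiz thus ranged from 10.8 to 20.8 CPM over the classes, and the KO levels from 5.26 to 11.3 CPM, with no pair of neighbouring KO classes apart beyond the counting interval. Without cluster 0 the ratio over all cells was -0.57 (-0.77 to -0.37), short of 1.5-fold.

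Immediate early genes, which respond within minutes to stimulation or handling, were also lower in the KO library. Of the 13 such genes listed, 10 were at least 1.5-fold lower and 0 higher, with a median ratio of -1.48, where 16.7% of all measured genes were lower and 17% higher and the median was -0.04. Fosb stood at 125 CPM in WT against 12.3 CPM in KO, Atf3 at 14.5 against 1.65 CPM, Dusp1 at 33.0 against 4.62 CPM and Nr4a1 at 27.6 against 4.68 CPM. The summed level of the list in goblet-like cells was 1965 CPM in WT and 943 CPM in KO, and in cluster 0 it was 2075 and 1060 CPM. Its part in the Nfkbiz result was not tested.

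Of the subunit genes, those of the canonical branch were between the thresholds over all cells. Rela (chr19:5637483-5648130, plus strand), which encodes the transactivating p65 subunit of the canonical dimer, stood at 17.6 CPM in WT and 23.9 CPM in KO (0.44, 0.31 to 0.57). Its ratio lay above 0 in all 5 classes, between 0.32 and 0.71, and reached 1.5-fold in cycling-like cells, at 18.1 against 28.4 CPM (0.65, 0.42 to 0.89). That call was lost with mitochondrial, ribosomal-protein and haemoglobin genes left out of the totals (0.58) and in cells with at most 10% mitochondrial UMIs (0.43). Rela also passed 1.5-fold in enteroendocrine-like cells, on 19 against 28 UMIs (0.71, -0.18 to 1.63). Nfkb1 (chr3:135584655-135691547, minus strand), the gene of p105 and p50, was at 37.5 CPM in WT and 38.7 CPM in KO (0.05, -0.05 to 0.14). In cluster 0 it was 35.0 against 46.1 CPM (0.40, 0.19 to 0.60), in goblet-like cells 37.8 against 33.5 CPM (-0.18, -0.35 to -0.01) and in enteroendocrine-like cells 54.4 against 39.5 CPM (-0.46, -1.04 to 0.10). No class reached 1.5-fold for Nfkb1.

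Both non-canonical subunit genes were higher in KO over all cells. Nfkb2 (chr19:46304320-46312385, plus strand), the gene of p100 and p52, stood at 5.80 CPM in WT and 24.9 CPM in KO, from 349 and 939 UMIs (2.11, 1.93 to 2.29). The WT level lay between 3.95 and 7.55 CPM in the 5 classes and the KO level between 16.7 and 36.3 CPM, so the ranges did not overlap. Both lower ends are enteroendocrine-like cells, with 5 UMIs in WT and 19 in KO. The share of all genes without such overlap is not given here, and classes of 1 library are not replicates. The ratio was 3.10 (2.68 to 3.55) in cluster 0, 2.33 (1.96 to 2.71) in cycling-like, 2.08 (0.61 to 3.85) in enteroendocrine-like, 2.02 (1.57 to 2.49) in colonocyte-like and 1.45 (1.15 to 1.75) in goblet-like cells. In cells with at most 10% mitochondrial UMIs the Nfkb2 ratio was 2.13 (1.11 to 3.27) in cluster 0 and 2.67 (1.26 to 4.41) in colonocyte-like cells, and with cells thinned to 3000 UMIs it was 3.72 in cluster 0. Nfkb2 overlaps Psd on the opposite strand.

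Relb (chr7:19606217-19629438, minus strand), which encodes the partner of p52, stood at 14.5 CPM in WT and 34.9 CPM in KO (1.27, 1.14 to 1.39). Its WT level was 23.7 CPM in colonocyte-like, 18.2 CPM in cluster 0, 14.3 CPM in cycling-like, 11.05 CPM in enteroendocrine-like and 7.71 CPM in goblet-like cells. In KO the same classes stood at 40.04, 54.4, 41.2, 15.8 and 20.4 CPM. The ratio was 1.58 in cluster 0, 1.53 in cycling-like, 1.41 in goblet-like and 0.76 (0.48 to 1.04) in colonocyte-like cells. In cells with at most 10% mitochondrial UMIs the Relb ratio in cluster 0 was 0.87 (0.29 to 1.45). The colonocyte-like call for Relb was lost with the mean of per-cell CPM (0.51) and without cells holding a Ccl20 UMI (0.44). With 14 against 18 UMIs in enteroendocrine-like cells the ratio was 0.51 (-0.58 to 1.63), not detectable at this depth.

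Tnfaip3 (chr10:19000910-19015657, minus strand) encodes A20, a ubiquitin-editing enzyme that shuts off signalling upstream of the IκB kinase. It stood at 5.76 CPM in WT and 12.2 CPM in KO (1.09, 0.88 to 1.29). Cluster 0 held 6.00 against 19.3 CPM, colonocyte-like cells 8.87 against 16.2 CPM, cycling-like cells 5.05 against 11.1 CPM and goblet-like cells 4.71 against 8.77 CPM. Enteroendocrine-like cells had 3 and 4 UMIs. In goblet-like cells the ratio was 1.44 (0.84 to 2.07) in cluster 1 and 0.29 (-0.35 to 0.91) in cluster 2. Cluster 1 held 606 WT and 755 KO cells and cluster 2 held 704 WT and 520 KO cells, so most WT and most KO goblet-like cells came from different clusters.

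**Figure D2:**
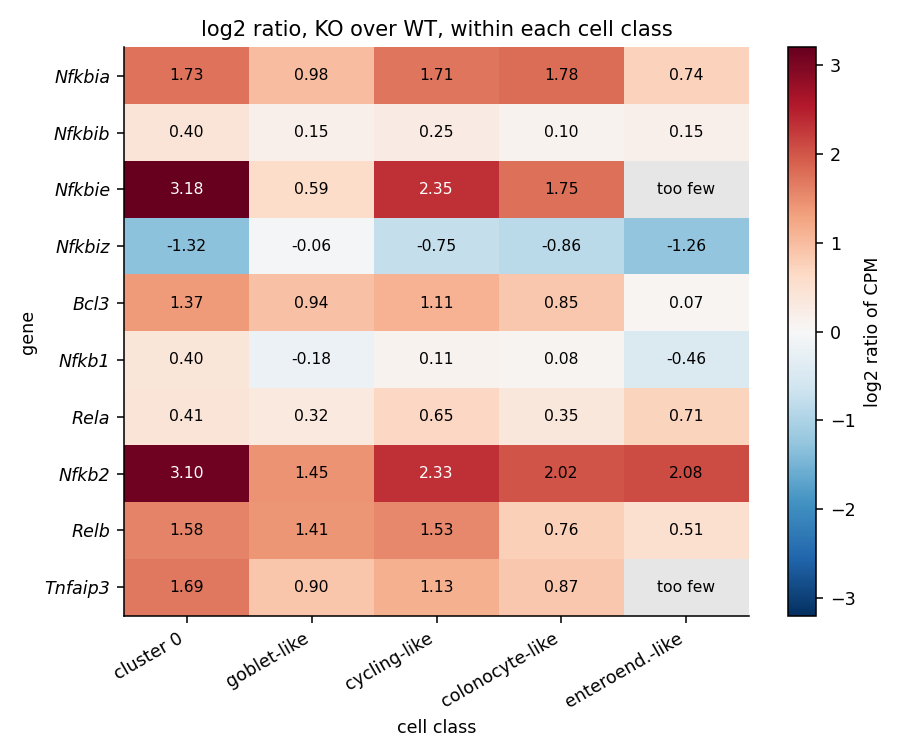
The log2 ratio of KO over WT CPM for each gene (rows) in each class (columns), with the value printed in each field and red for higher and blue for lower in KO. Grey fields had under 20 UMIs. Nfkb2 in cluster 0 is at 3.10 and Nfkbiz in cluster 0 at -1.32, while Nfkbiz in goblet-like cells is at -0.06.

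Taken by class, 28 of the 48 combinations of gene and class with at least 20 UMIs were at least 1.5-fold higher in KO and 4 were at least 1.5-fold lower. In cluster 0 the counts were 6 higher and 1 lower of 10, where 21.7% of all genes tested were higher and 15.1% lower. Goblet-like cells had 6 higher and 0 lower of 10, against 15.5% and 20% of all genes. Cycling-like cells had 7 higher and 1 lower of 10, against 19% and 14.1%, and colonocyte-like cells 6 higher and 1 lower of 10, against 17.5% and 16.3%. Enteroendocrine-like cells had 3 higher and 1 lower of the 8 genes with enough UMIs, against 18.6% and 16.3%. The median ratio of the genes with enough UMIs was 1.47 in cluster 0, 1.12 in cycling-like, 0.80 in colonocyte-like, 0.74 in goblet-like and 0.33 in enteroendocrine-like cells. Over all genes tested the medians were 0.03, 0.03, -0.01, -0.12 and 0.01 in the same order. The summed level of the 15 immune marker genes was higher in KO in each of the 5 classes. It stood at 48.5 against 100 CPM in cluster 0, 70.4 against 135 CPM in colonocyte-like and 58.4 against 104 CPM in goblet-like cells. Cycling-like cells had 35.2 against 46.7 CPM and enteroendocrine-like cells 136 against 222 CPM. Its part in the ratios of the 10 genes was not tested. Without the cells holding UMIs of at least 2 of the immune marker genes, 26 combinations were higher and 3 lower. The shares of all genes without those cells are not given here.

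Each library held cells with Xist RNA and cells with Y-linked RNA, which allowed the comparison to be made apart in each kind. The first kind, called Xist cells, had 3 or more Xist UMIs and lacked UMIs of the Y-linked genes, and numbered 1689 in WT and 1696 in KO. The other kind, called Y-linked cells, lacked Xist UMIs and had a Y-linked one, and numbered 1540 and 996. Nfkb2 stood at 5.04 CPM in WT and 23.9 CPM in KO in the first kind, and at 5.72 and 24.9 CPM in the second. Nfkbia stood at 78.9 against 215 CPM and at 67.0 against 201 CPM. Relb stood at 15 against 36.1 CPM and at 14.4 against 34.9 CPM. For each of these 3 genes both KO values were above both WT values. That also held for Nfkb1, at 35.0 and 37.0 CPM in WT against 39.1 and 37.9 CPM in KO, so it does not set the 3 genes apart. The share of all genes for which it holds is not given here. In the Xist cells 6 of the 10 genes were higher and 1 lower, with 17.1% of all genes higher and 15.9% lower. In the Y-linked cells 6 were higher and 0 lower, against 14.8% and 14.1%. The gene that left the count was Nfkbiz, at -1.03 (-1.33 to -0.75) in the Xist cells and -0.37 (-0.69 to -0.05) in the Y-linked cells, where it stood at 15.9 against 7.78 CPM and at 14.9 against 11.6 CPM. Tnfaip3 was at 0.92 (0.60 to 1.24) and 1.496 (1.12 to 1.87). By class, Tnfaip3 was at 0.44 (-0.21 to 1.10) in goblet-like Xist cells and 1.70 (0.90 to 2.53) in goblet-like Y-linked cells, and at 0.54 and 1.44 in colonocyte-like ones. Bcl3 in colonocyte-like cells was at 0.35 (-0.19 to 0.88) and 1.09 (0.49 to 1.68), and Nfkbia in enteroendocrine-like Xist cells at 0.36. Of the combinations of gene and class, 19 were higher in Xist cells and 24 in Y-linked cells. How many combinations had enough UMIs in each kind, and the share of all genes by class there, are not given here. These counts therefore cannot be set against each other. The difference between the 2 kinds of cells was not tested.

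**Figure D3:**
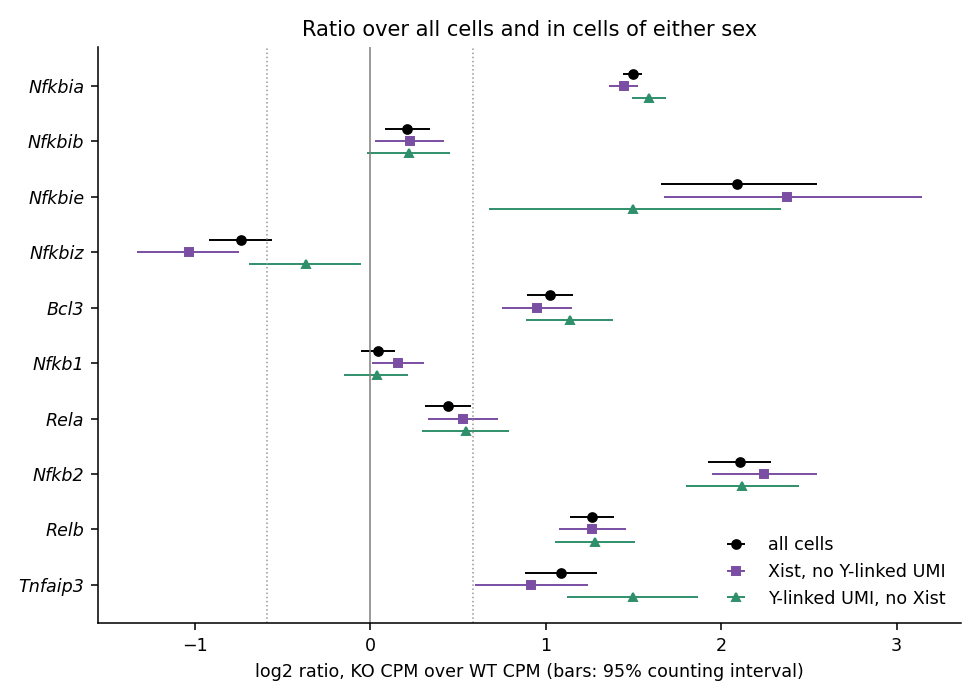
The log2 ratio of KO over WT CPM over all cells (black circles), in Xist cells (squares) and in Y-linked cells (triangles), with 95% counting intervals. Dotted lines mark 1.5-fold either way. Nfkb2 lies at 2.11, 2.24 and 2.12, and Nfkbiz at -0.74, -1.03 and -0.37.

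Ratios of UMIs between genes of the same cells do not depend on how a library is scaled. The UMI counts are not per length of transcript, so these ratios are read only between libraries. The 3 classical IκB genes together had 1.25 UMIs (1.2 to 1.298) for each UMI of the 4 subunit genes in WT and 1.91 (1.85 to 1.98) in KO, 1.53-fold more (1.45 to 1.62). With Nfkbia left out the same ratio was 0.274 in WT and 0.220 in KO, 0.805-fold (0.733 to 0.884), so the higher value rested on Nfkbia. The ratio of the 3 genes to the subunits was higher in KO in cluster 0 (1.68 against 2.38), in cycling-like cells (1.34 against 2.13), in colonocyte-like cells (1.10 against 2.10) and in goblet-like cells (0.988 against 1.27). In enteroendocrine-like cells it was 0.897 against 1.24, with an interval of the fold from 0.933 to 2.04.

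The RNA ratio between the subunit genes of the branches also differed between the libraries. It follows from the values of the same genes given above, and the use of either branch was not measured. Nfkb2 and Relb together had 0.369 UMIs for each UMI of Nfkb1 and Rela in WT and 0.956 in KO, 2.59-fold more (2.37 to 2.83). The values were 0.441 against 1.35 in cluster 0, 0.340 against 0.941 in cycling-like, 0.547 against 1.05 in colonocyte-like, 0.276 against 0.740 in goblet-like and 0.216 against 0.507 in enteroendocrine-like cells. The interval of the fold lay above 1 in each of the 5 classes. In cells with Xist RNA the fold was 2.44 (2.13 to 2.81) and in cells with Y-linked RNA 2.57 (2.19 to 3.03).

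**Figure D4:**
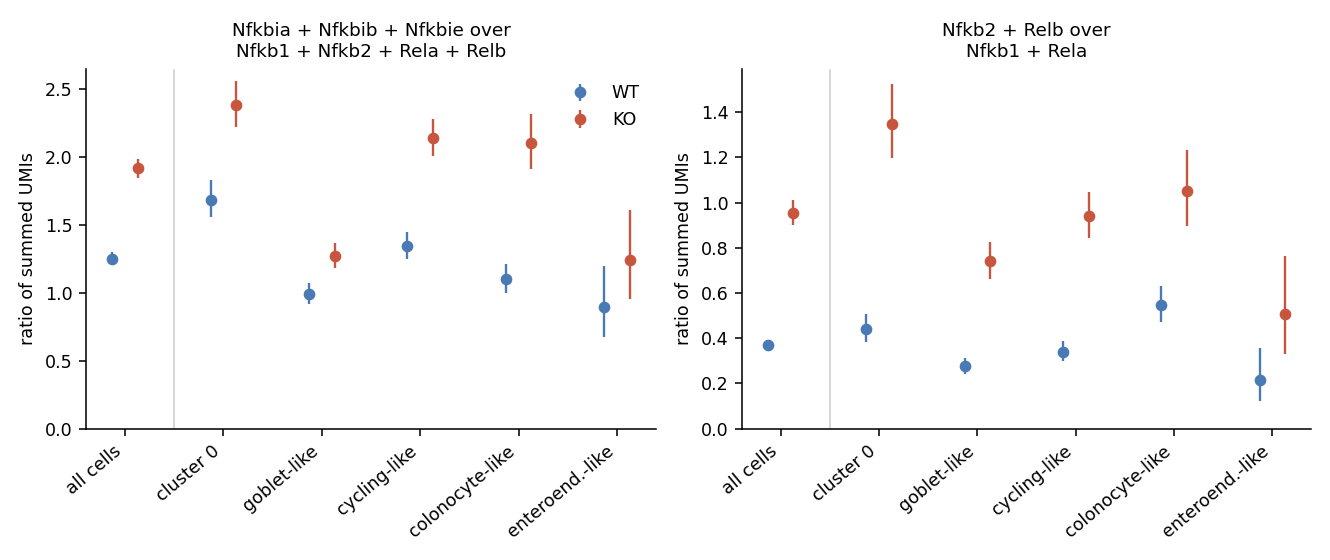
Ratio of summed UMIs in WT (blue) and KO (red), over all cells and by class, with exact 95% counting intervals and axes from 0. The left panel shows the classical IκB genes over the 4 subunit genes (1.25 in WT and 1.91 in KO over all cells), and the right panel Nfkb2 and Relb over Nfkb1 and Rela (0.369 and 0.956).

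To compare shares of cells with at least 1 UMI, every cell was thinned to 3000 UMIs, which left out 172 WT and 97 KO cells of lower depth. After thinning, 17.8% of WT cells (16.6 to 18.996, exact binomial interval) and 38.6% of KO cells (36.95 to 40.2) had an Nfkbia UMI, against 47.2% and 65.2% unthinned. Nfkb2 was found in 1.63% (1.27 to 2.07) and 7.06% (6.24 to 7.95), against 7.79% and 20.2% unthinned. Nfkbiz was found in 4.80% (4.17 to 5.51) and 2.53% (2.04 to 3.10), against 17.9% and 8.51%. Nfkb1 was found in 9.68% and 10.5% after thinning, with overlapping intervals, while unthinned it was found in 38.3% and 30.9%. No class of these cells is known to lack the 10 genes, and a background share from free RNA was therefore not measured. No cell held more than 25 UMIs of any of the 10 genes, and the tenth of cells with the most Nfkbia held 49.7% of its UMIs in WT and 40.8% in KO.

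Cells with and without RNA of Ccl20, a chemokine gene that is an NF-κB target, were also set side by side within each library. After thinning, 337 KO cells held a Ccl20 UMI and 3219 did not, against 58 and 3980 WT cells. Of the 337 cells 162 lay in cluster 0, against 621 of the 3219, so the pooled values mix classes in different shares. Pooled over the KO cells, Nfkbia was at 390 CPM with and 193 CPM without Ccl20 (1.02, 0.86 to 1.18). Within classes its ratio was 0.50 (0.27 to 0.72) in cluster 0, 0.14 (-0.79 to 0.93) in goblet-like, 0.36 (-0.06 to 0.76) in cycling-like and 1.14 (0.79 to 1.48) in colonocyte-like cells. Nfkb2 was at 44.5 and 23.3 CPM pooled and at 72.0 and 33.8 CPM in cluster 0. It lay the other way in goblet-like cells, at 7.25 and 21.8 CPM, and in cycling-like cells, at 17.5 and 20.7 CPM, from 1 and 3 UMIs in the cells with Ccl20. Relb was at 84.1 and 32.8 CPM pooled, and its ratio was 0.94 (0.38 to 1.48) in cluster 0, 1.37 (0.56 to 2.11) in cycling-like, 1.17 (-0.32 to 2.36) in goblet-like and 0.85 (-0.02 to 1.66) in colonocyte-like cells. Relb thus lay above 0 in these 4 classes, with an interval above 0 in 2 of them. Bcl3 was at 64.3 and 28.0 CPM pooled, with ratios of 1.28 (0.67 to 1.88) in cluster 0, 0.85 (-0.27 to 1.80) in cycling-like, 1.15 (0.10 to 2.10) in colonocyte-like and -0.69 (-3.76 to 1.203) in goblet-like cells. Tnfaip3 was at 23.7 and 11.8 CPM pooled, but the interval of its ratio included 0 in each of the 4 classes, cluster 0 among them (0.82, -0.07 to 1.66). Nfkbie was at 15.8 and 3.003 CPM pooled, from 16 and 29 UMIs. Rela lay the other way pooled, at 11.9 CPM with Ccl20 and 25.6 CPM without, from 12 and 247 UMIs. In cluster 0 it was at 6.17 and 27.9 CPM, from 3 and 52 UMIs, while in colonocyte-like cells it was at 33.8 and 20.3 CPM, from 7 and 25 UMIs. In WT cells with Ccl20 the levels were 241 CPM for Nfkbia, from 42 UMIs, and 34.5 CPM for Tnfaip3, from 6 UMIs, against 74.9 and 4.86 CPM without. Nfkb2 had 0 UMIs in the 58 WT cells with Ccl20 and stood at 5.53 CPM without. The upper bound of its log2 ratio was 1.98, so no difference can be read from the 0. These cells share a library and are not replicates. Before thinning, 173 WT and 584 KO cells held a Ccl20 UMI. With these cells left out of both libraries, 6 of the 10 genes were higher and 1 lower. The ratios were 1.38 for Nfkbia, 1.85 for Nfkb2 and 1.01 for Relb. The share of all genes in the remaining cells is not given here. A remaining cell may hold Ccl20 RNA of which no UMI was captured.

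Over the 10 sums of class and library, the closest patterns among the 10 genes were those of Relb and Bcl3 (Pearson r 0.961 of log2 CPM plus 1), Nfkbia and Bcl3 (0.947) and Nfkbia and Relb (0.939). Among the classical IκB genes r was 0.82 for Nfkbia and Nfkbib, 0.80 for Nfkbia and Nfkbie and 0.78 for Nfkbib and Nfkbie. Nfkb1 was not like any of these, with r of 0.07 to Nfkbia and 0.01 to Relb, and Nfkbiz had r of -0.69 to Nfkb2. Over all genes of at least 20 CPM, the patterns most like that of Nfkbia were those of Nfe2l2 (0.984), Sdhaf2 (0.974), Fam162a (0.972), Filip1l (0.968) and Dmac1 (0.968). Those most like Nfkbiz were Gk (0.917), Plcb3 (0.915), Rpl39 (0.914), Dbt (0.912) and Gtf2ird1 (0.911), and those most like Nfkb1 were Lrrc8b (0.942), Mthfsl (0.922), Fkbp1a (0.905), Rbpj (0.897) and Rasa1 (0.878). The 10 points share 2 libraries, so these values describe the data and are no test.

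Around the 10 genes, the other parts of the pathway were uneven. The remaining family members were Rel, the gene of the c-Rel subunit, at 4.80 CPM in WT and 7.63 CPM in KO (0.67, 0.43 to 0.91), and Nfkbid, the gene of a nuclear IκB, at 1.51 and 1.78 CPM (0.24, -0.24 to 0.71). Over 6 lists of the pathway 40 of 92 measured genes were at least 1.5-fold higher and 9 were at least 1.5-fold lower, to be read against the 17% and 16.7% above. Without the cells holding UMIs of at least 2 immune marker genes, 37 were higher and 9 lower, with the share of all genes there not given. The lists, too, were chosen with earlier results of these data known. Among receptors 9 of 16 were higher and 1, the bacterial sensor gene Nod1, was lower (median 0.68). Tlr2, a receptor for bacterial lipoproteins, stood at 3.94 against 15.01 CPM, Tnfrsf1b, the gene of TNF receptor 2, at 4.14 against 14.1 CPM, Tnfrsf11a, the gene of RANK, at 52.9 against 131 CPM, and Il17ra at 5.35 against 12.0 CPM. Among ligands 5 of 8 were higher and 2 lower (median 0.91). The higher call of Il1b rested on 34 UMIs in each library (0.68, -0.05 to 1.41). The lower call of Tnfsf12 rested on 59 against 22 UMIs (-0.75, -1.52 to -0.02). Ltb, the gene of lymphotoxin β, which signals through the non-canonical branch, stood at 0.914 CPM in WT and 10.2 CPM in KO (3.48, 3.07 to 3.92), and Tnf at 1.21 against 7.47 CPM. Its receptor gene Ltbr, of the receptor list, was between the thresholds, at 33.3 against 41.6 CPM (0.32, 0.23 to 0.42). Ltbr was named after its value was seen. Tnfsf10, the gene of TRAIL, stood at 6.93 against 15.3 CPM, while Il18 lay the other way, at 34.2 against 13.1 CPM (-1.39, -1.53 to -1.24).

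The kinases and adaptors that carry the signal to the IκBs were mostly between the thresholds, with 8 of 28 higher, 2 lower and 18 neither (median 0.02). The 3 genes of the IκB kinase complex, Chuk, Ikbkb and Ikbkg, had ratios of -0.18, -0.09 and -0.21. Birc3, the gene of the ubiquitin ligase cIAP2 and an NF-κB target, was highest by interval, at 17.4 against 55.0 CPM (1.66, 1.55 to 1.77), followed by Tradd at 26.2 against 57.4 CPM, Tirap at 10.7 against 21.2 CPM and Traf6 at 13.3 against 23.8 CPM. Map3k14, the gene of the kinase NIK of the non-canonical branch, stood at 3.11 against 4.92 CPM, and Traf3, whose product keeps NIK low, at 10.4 against 18.3 CPM. Traf2 and Birc2 of the same list were between the thresholds, with ratios of -0.19 and -0.17. Map3k14, Traf3, Traf2 and Birc2 were named after their values were seen. Of 12 further inhibitors 4 were higher and 1 lower (median 0.25). Tnip3, which encodes a partner of A20, stood at 14.9 against 103 CPM (2.79, 2.69 to 2.90), Rnf11 at 52.5 against 103 CPM and the RNase gene Zc3h12a at 6.71 against 13.6 CPM, while Tax1bp1, an adaptor of A20, stood at 521 against 314 CPM (-0.73, -0.76 to -0.70). Of 26 measured target genes 13 were higher and 3 lower (median 0.65). The higher ones were led by Ubd at 0.747 against 107 CPM, Ccl20 at 6.18 against 142 CPM, Saa3 at 0.930 against 7.71 CPM and Tnfaip2 at 0.216 against 2.15 CPM. The 3 lower ones were Traf1 at 3.80 against 0.664 CPM, Lcn2 at 4.72 against 1.65 CPM and Il15 at 6.64 against 3.59 CPM.

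The promoters of these genes were read for the kappaB consensus, the sequence that NF-κB dimers bind, because 5 of the 7 genes with an entry in RefSeq's promoter table were higher in KO. The table gives 300 bases for each annotated start, from 250 before it to 50 after it, on GRCm38.p6, and held 10 such windows for Nfkbia, Nfkbib, Nfkbie, Nfkb2, Rela, Bcl3 and Tnfaip3. Windows of Nfkbiz, Nfkb1 and Relb were not analysed here. The sequences follow, 5′ to 3′ on the gene's strand, with matches to the consensus on either strand in capitals and overlapping matches joined.
Nfkbia: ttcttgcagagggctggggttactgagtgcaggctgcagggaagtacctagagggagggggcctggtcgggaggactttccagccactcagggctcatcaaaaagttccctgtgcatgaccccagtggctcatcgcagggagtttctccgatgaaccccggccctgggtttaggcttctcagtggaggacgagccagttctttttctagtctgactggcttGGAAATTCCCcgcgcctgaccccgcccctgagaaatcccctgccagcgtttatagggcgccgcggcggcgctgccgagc
Nfkbie: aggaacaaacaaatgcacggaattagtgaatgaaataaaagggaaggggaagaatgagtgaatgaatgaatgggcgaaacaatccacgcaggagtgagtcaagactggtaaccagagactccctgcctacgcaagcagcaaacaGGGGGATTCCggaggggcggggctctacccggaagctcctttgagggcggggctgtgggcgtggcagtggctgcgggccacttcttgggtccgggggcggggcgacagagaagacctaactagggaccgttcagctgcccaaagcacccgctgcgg
Nfkb2, first start: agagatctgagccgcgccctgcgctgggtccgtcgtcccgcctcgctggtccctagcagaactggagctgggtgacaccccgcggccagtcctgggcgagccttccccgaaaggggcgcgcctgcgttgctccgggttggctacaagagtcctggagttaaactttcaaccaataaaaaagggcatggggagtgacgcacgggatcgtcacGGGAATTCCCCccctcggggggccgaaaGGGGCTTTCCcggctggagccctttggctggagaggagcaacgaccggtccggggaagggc
Bcl3: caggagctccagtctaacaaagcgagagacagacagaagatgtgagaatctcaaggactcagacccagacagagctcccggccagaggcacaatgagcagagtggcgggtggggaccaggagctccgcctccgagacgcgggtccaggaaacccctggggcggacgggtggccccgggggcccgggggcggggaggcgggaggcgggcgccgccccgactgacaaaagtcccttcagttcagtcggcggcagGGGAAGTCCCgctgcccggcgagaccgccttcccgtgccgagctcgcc
Tnfaip3, first start: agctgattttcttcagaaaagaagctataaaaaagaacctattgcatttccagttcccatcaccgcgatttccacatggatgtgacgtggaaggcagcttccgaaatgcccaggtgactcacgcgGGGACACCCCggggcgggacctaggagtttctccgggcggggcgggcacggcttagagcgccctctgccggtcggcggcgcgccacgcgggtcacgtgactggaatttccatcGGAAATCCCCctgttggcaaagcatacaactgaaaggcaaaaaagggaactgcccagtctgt
Nfkbib: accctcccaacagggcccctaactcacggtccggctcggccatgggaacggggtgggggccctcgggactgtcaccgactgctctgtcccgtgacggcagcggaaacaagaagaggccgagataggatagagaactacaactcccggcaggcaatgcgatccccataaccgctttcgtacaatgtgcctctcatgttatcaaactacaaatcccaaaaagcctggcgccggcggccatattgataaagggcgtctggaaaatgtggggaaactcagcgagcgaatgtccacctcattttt
Rela: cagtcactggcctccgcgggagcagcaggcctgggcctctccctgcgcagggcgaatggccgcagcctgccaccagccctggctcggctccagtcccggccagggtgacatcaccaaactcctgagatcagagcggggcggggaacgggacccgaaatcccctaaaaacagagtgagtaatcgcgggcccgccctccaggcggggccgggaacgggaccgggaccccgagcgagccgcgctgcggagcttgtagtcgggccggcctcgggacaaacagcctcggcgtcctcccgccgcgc

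Nfkbia (chr12:55492598-55492897) had 1 match, 29 bases before the start, and Nfkbie (chr17:45555450-45555749) had 1 match, 106 bases before it. Nfkb2 had 3 at its first start (chr19:46304487-46304786), of which 2 overlap, 2 at the second and 1 at the third. Those last windows (chr19:46305445-46305744 and chr19:46305680-46305979) overlap, and share 1 match, which is counted in both. Bcl3 (chr7:19822706-19823005) had 1 just after its start, and Tnfaip3 had 2 at its first start (chr10:19015361-19015660) and 0 at its second. Nfkbib (chr7:28766595-28766894) and Rela (chr19:5637291-5637590) had 0. A match was present in 8.46% of all 32851 windows of the table and in 10.3% of the windows of measured genes. A match says only that these letters lie in the window, and its bearing on the ratios was not tested.

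**Figure D5:**
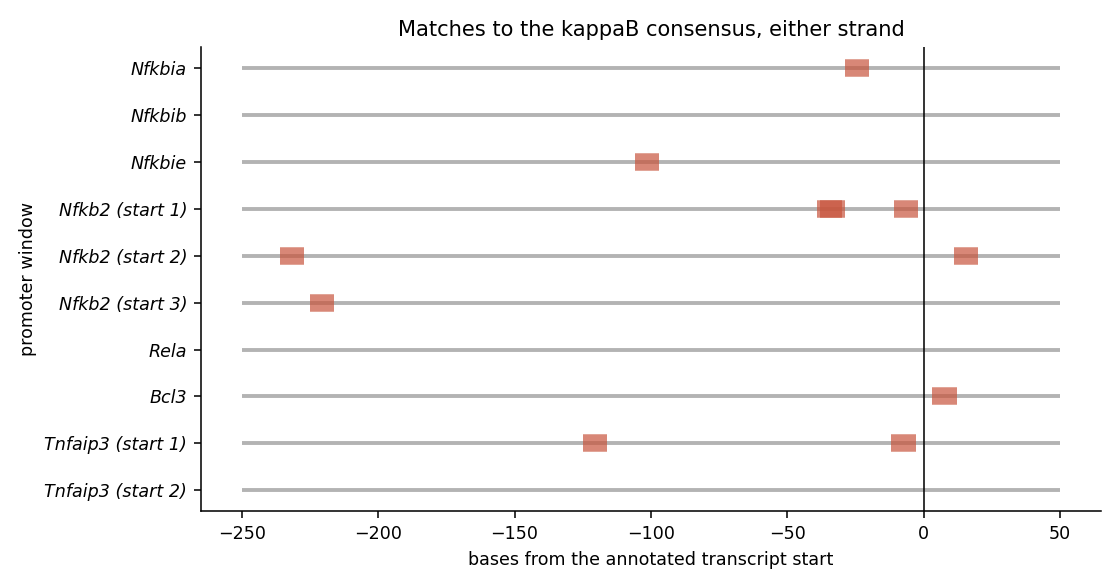
Position of matches to the kappaB consensus on either strand (red) in 10 promoter windows (grey), in bases from the annotated transcript start at the black line. The 5 genes with a match are Nfkbia, Nfkbie, Nfkb2, Bcl3 and Tnfaip3, and the windows of Nfkbib and Rela hold 0. Windows of Nfkbiz, Nfkb1 and Relb were not analysed, and a link between matches and ratios was not tested.

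The METTL3 and METTL14 complex methylates A mostly within a short consensus of which GGACT is a frequent form, so the longest coding transcript of each gene in GENCODE vM21 was read for that sequence. Tnfaip3 held 11 copies in 4422 bases (2.49 per kilobase), Rela 6 in 2716 (2.21), Nfkb2 8 in 3846 (2.08) and Nfkbia 3 in 1578 (1.90). Relb (1.36), Bcl3 (1.08), Nfkbie (0.821), Nfkb1 (0.729), Nfkbiz (0.486) and Nfkbib (0.485) held fewer. The median over 12557 measured genes was 1.05 per kilobase, with quartiles at 0.637 and 1.52. The sequence alone does not show that a site is methylated, and methylation was not measured in these libraries.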

How the data were processed

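The deposited matrix holds UMI counts per gene and cell as whole numbers, with no normalization, and the deposited cell table gives each cell's library and cluster number. The genome mm10 and the tools Cell Ranger and bcl2fastq are named, per the submitters' processing notes. Versions, the cell filter, strand setting and clustering method are not given in the sources used here.

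UMI counts were summed per library or class and divided by their total to give CPM, with Python 3.11.15, NumPy 2.4.6, SciPy 1.17.1 and pandas 2.3.3. Ratios have exact conditional binomial 95% intervals, CPM exact Poisson and shares exact Clopper-Pearson ones, and ratios between genes a conditional odds ratio interval. All cover counting error only. A gene needed 50 UMIs over both libraries, or 20 within a class, and a class 50 cells per library. A cluster was named by its best-scoring marker list (mean z score of the list's genes) unless their 10 leading genes held more markers of another list. No doublets were removed. Genes named by rule were the 10 members, Mettl14, up to 4 genes per list by the interval bound farthest from 0, and the 5 genes of most similar pattern. Outside this rule, Nfkbid, Chuk, Ikbkb, Ikbkg, Nod1, Ltbr, Il1b, Tnfsf12, Map3k14, Traf3, Traf2, Birc2, Traf1, Lcn2 and Il15 were also named, as were marker genes and overlapping genes. The members and lists were chosen with earlier results of these data known. Alternatives numbered 14, and 3 were added after seeing the data. The ratio and its interval were tested on simulated Poisson counts. These hold counting error only, so they say nothing of spread between cells or libraries. Gene positions are from GENCODE vM21 on GRCm38, promoters from RefSeq on GRCm38.p6.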

Additional observations from a re-analysis of the deposited data

How the results depend on the processing

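Leaving out enzyme-rich cells or cells that mixed Xist with Y-linked UMIs, changing the scaling, weighting every cell or class equally and requiring the interval to exclude equal levels left 6 of the 10 genes higher and 1 lower over all cells. The ratios of Nfkbia, Nfkb2, Relb, Bcl3, Nfkbie and Tnfaip3 stayed past 1.5-fold under all 13 alternatives that give a ratio, from 1.37 to 1.59 for Nfkbia and from 1.84 to 2.24 for Nfkb2. Nfkbiz lay between -1.03 and -0.37, and the count of lower genes was 0 in cells with Y-linked UMIs, without cluster 0 (an alternative added after seeing the data) and at 2-fold. By class the 4 lower combinations became 2 in cells with at most 10% mitochondrial UMIs, in Y-linked cells, with cells thinned to 3000 UMIs and at 2-fold, and the 28 higher ones became 18 at 2-fold and 18 with a minimum of 200 UMIs. They were 19 in Xist cells, 22 in cells with at most 10% mitochondrial UMIs, 23 without cells holding a Ccl20 UMI and between 24 and 29 under the other alternatives. Calls by class were lost for Tnfaip3 and Bcl3 in colonocyte-like cells without cells holding a Ccl20 UMI (0.52 and 0.55), for Nfkbia in enteroendocrine-like cells with the mean of per-cell CPM (0.48) and without Ccl20 cells (0.58), and for Rela there without immune-marker cells (0.50), without cells of mixed Xist and Y-linked UMIs (0.31) and with the mean of per-cell CPM (0.52). In the pathway lists 40 higher and 9 lower genes became 25 and 3 at 2-fold, and 5 were lower with equal weight per class, for which 78 of the 92 genes gave a ratio. Shares of all genes under the alternatives are not given here, apart from those for Xist and Y-linked cells taken over all classes. Whether these counts changed in step with all genes was therefore not tested. Nfkbie in goblet-like cells, on under 50 UMIs, turned to -0.073 without cells that mixed Xist with Y-linked UMIs and to -0.11 without cells holding a Ccl20 UMI, and lost its call at 0.14 with the mean of per-cell CPM, at 0.47 without immune-marker cells and at 0.55 with mitochondrial, ribosomal-protein and haemoglobin genes left out. Except where fewer cells or a stricter threshold make the change, the cause was not tested. No paired analysis was possible because each genotype has 1 library. Low depth limits Nfkbie, and all values in enteroendocrine-like cells, most.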
